A study of Mus musculus with 22 samples.

Results

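The Toll-like receptor (TLR) family was followed in bone marrow-derived macrophages (BMDM) of the mouse, obtained by culturing femoral marrow with the macrophage growth factor M-CSF. Its members were 10 genes, Tlr1, Tlr2, Tlr3, Tlr4, Tlr5, Tlr6, Tlr7, Tlr8, Tlr9 and Tlr13, chosen as all genes of that list with a probe whose RefSeq accession carried the symbol, out of 22346 genes tested. They were measured by 11 probes, of which Tlr7 had 2, and every probe was well above background on all 22 arrays except that of Tlr5, which was so on 21. The study asked how MK2 and MK3, protein kinases that act downstream of p38 MAPK, shape gene expression after lipopolysaccharide (LPS), the glycolipid that coats Gram-negative bacteria. BMDM from wild-type mice (wt), from mice deficient in MK2 (MK2-/-) and from mice deficient in both kinases (MK2/3-/-) were kept for 360 min in medium or with 100 ng/ml LPS. The wt mice were 12 to 13 weeks old and gave 4 medium-treated and 3 LPS-treated cultures. The MK2-/- mice were 10 to 13 weeks old and gave 4 of each, and the MK2/3-/- mice were 11 to 12 weeks old for 3 medium-treated and 11 to 14 weeks old for 4 LPS-treated cultures. All mice were of the strain C57BL/6 and labelled male, and no group with a deletion of MK3 alone was analysed here.

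Toll-like receptors are membrane proteins by which cells of innate immunity recognise conserved molecules of microbes. Those of the cell surface bind components of bacterial walls and flagella, and those of the endosome bind nucleic acids. On ligand binding the receptors recruit adaptors such as MyD88 and TRIF, which lead to NF-kB, MAP kinases and interferon regulatory factors, and macrophages carry most members of the family.

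The promoters of the members are shown as a description, and their part in the responses to LPS was not tested. RefSeq promoter windows of the assembly GRCm38.p6, which run from 250 bases before to 50 bases after an annotated start, were found for 8 of the 10 members, with 10 windows in all, and Tlr4 and Tlr7 had none. A match to at least 1 of 4 motifs, searched on both strands, stood in 6 of the 10 windows. The share of all windows with any of the 4 was not counted, so this number has nothing to be set against. An annotated start need not be the outermost of its gene. The stretches of Tlr1, Tlr2, Tlr3 and Tlr6 below lie inside the annotated span of the gene, which for Tlr6 is chr5:64953092-64970942. Capitals mark the match, and each stretch reads 5′ to 3′ along the strand of the gene.
Tlr2, NF-kB motif, 172 bases before the start, chr3:83841761-83841790, minus strand: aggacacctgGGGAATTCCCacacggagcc
Tlr2, NF-kB motif, 8 bases before the start, chr3:83841597-83841626, minus strand: ccctgacctgGGGACATCCCcttccctcac
Tlr3, NF-kB motif, 211 bases before the start, chr8:45410572-45410601, minus strand: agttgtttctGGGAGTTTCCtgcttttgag
Tlr6, GAAANNGAA on the opposite strand, chr5:64959257-64959286, minus strand: ttcttttctctTTCACTTTCtgtttgatgt
Tlr1, GAGGAAGT, 23 bases before the start, chr5:64933563-64933592, minus strand: attaaatgttgGAGGAAGTaggagcttgaa
Tlr9, TGANTCA, 58 bases before the start, chr9:106222528-106222557, plus strand: gcaaatgatgtgTGACTCAttgtaccacct

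The NF-kB motif was present in 4.51% of all 32841 promoter windows, and the Tlr2 match farther from the start holds overlapping matches on both strands. The interferon-type repeat GAAANNGAA was present in 8.56% of all windows and, besides Tlr6, in that of Tlr8. TGANTCA, the AP-1 motif, was present in 7.81%, and GAGGAAGT, the motif of the macrophage factor PU.1, in 3.20% of all windows and in those of Tlr1 and Tlr9. None of the 4 motifs was found in the windows of Tlr5 and Tlr13, which says only that these letters do not occur there.

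Signals are given as log2 of the processed intensity after quantile normalisation over the 22 arrays, and levels of different probes are not set against each other. A gene was called when its Benjamini-Hochberg adjusted p in limma was below 0.05 over the 22346 genes. Arrays had median processed signals of 32.7 to 108, with 61.7% to 83.0% of their spots well above background. Both upper ends were those of LPS-treated MK2-/- replicate 3. That array had 2927 spots marked as outliers, where the others had 115 to 261. The targeted gene Mapkapk2, which encodes MK2, was lower than in wt BMDM in the MK2-/- BMDM (9.75-fold with LPS, 8.13-fold in medium) and in the MK2/3-/- BMDM (14.6-fold and 11.0-fold). Mapkapk3, which encodes MK3, was lower in MK2/3-/- BMDM by 17.3-fold with LPS and 3.92-fold in medium, while MK2-/- and wt BMDM did not pass the test. The macrophage markers Adgre1, Csf1r and Lyz2 were well above background on all arrays. Il6, which read 17.5 to 18.1 with LPS, varied in medium-treated wt BMDM, at 8.52, 6.41, 10.02 and 13.36. In medium it read 4.88 to 6.36 in MK2-/- and 5.16 to 6.55 in MK2/3-/- BMDM. How this spread bears on results that use medium-treated wt BMDM was not tested. Both MK2-/- arrays of replicate 3 stood apart, since the Y-linked genes Ddx3y and Eif2s3y read 1.99 to 3.31 there and 10.1 to 12.5 on the other 20 arrays, and Xist read 7.66 to 7.78 against at most 5.79. The design text of the series counts 3 medium-treated MK2-/- cultures, of letters a, c and e, while the labels give 4, with letter b as replicate 2, and the labels were followed. Without replicate 2, 6 members were called after LPS in MK2-/- BMDM and 0 between MK2-/- and wt BMDM in medium. Results that rest on MK2-/- BMDM are also given without both arrays of replicate 3 where the call changes.

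After LPS 6 to 8 of the 10 members were called, depending on the genotype. A family of 10 genes is too small for these counts to set it apart from all genes. In wt BMDM 6 of the 10 members were called, where 42.2% of all genes were called, with 4 higher (18.6% of all genes) and 2 lower (23.5%). In MK2-/- BMDM 7 were called (44.7% of all genes), 5 higher (17.6%) and 2 lower (27.2%). The number was 6 without both arrays of replicate 3, where 9212 of the 22346 genes were called. In MK2/3-/- BMDM 8 were called (48.3%), 4 higher (20.3%) and 4 lower (28%). The median log2 difference over the members was 0.50, 0.55 and 0.43 in wt, MK2-/- and MK2/3-/- BMDM, compared with -0.04, -0.01 and 0.02 over all genes. Tlr1, Tlr3 and Tlr6 rose and Tlr4 and Tlr13 fell in all 3 genotypes, and these 15 calls held in every setting tried. Among the called responses, those of Tlr2 differed in direction between genotypes. Scaling each array to its 75th percentile in place of quantile normalisation moved the median of all genes up by 0.34 (wt), 0.29 (MK2-/-) and 0.27 (MK2/3-/-), and the share of called genes that were higher from 44.2% to 60.5%, from 39.3% to 53.6% and from 42.1% to 54.1%.

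**Figure D1:**
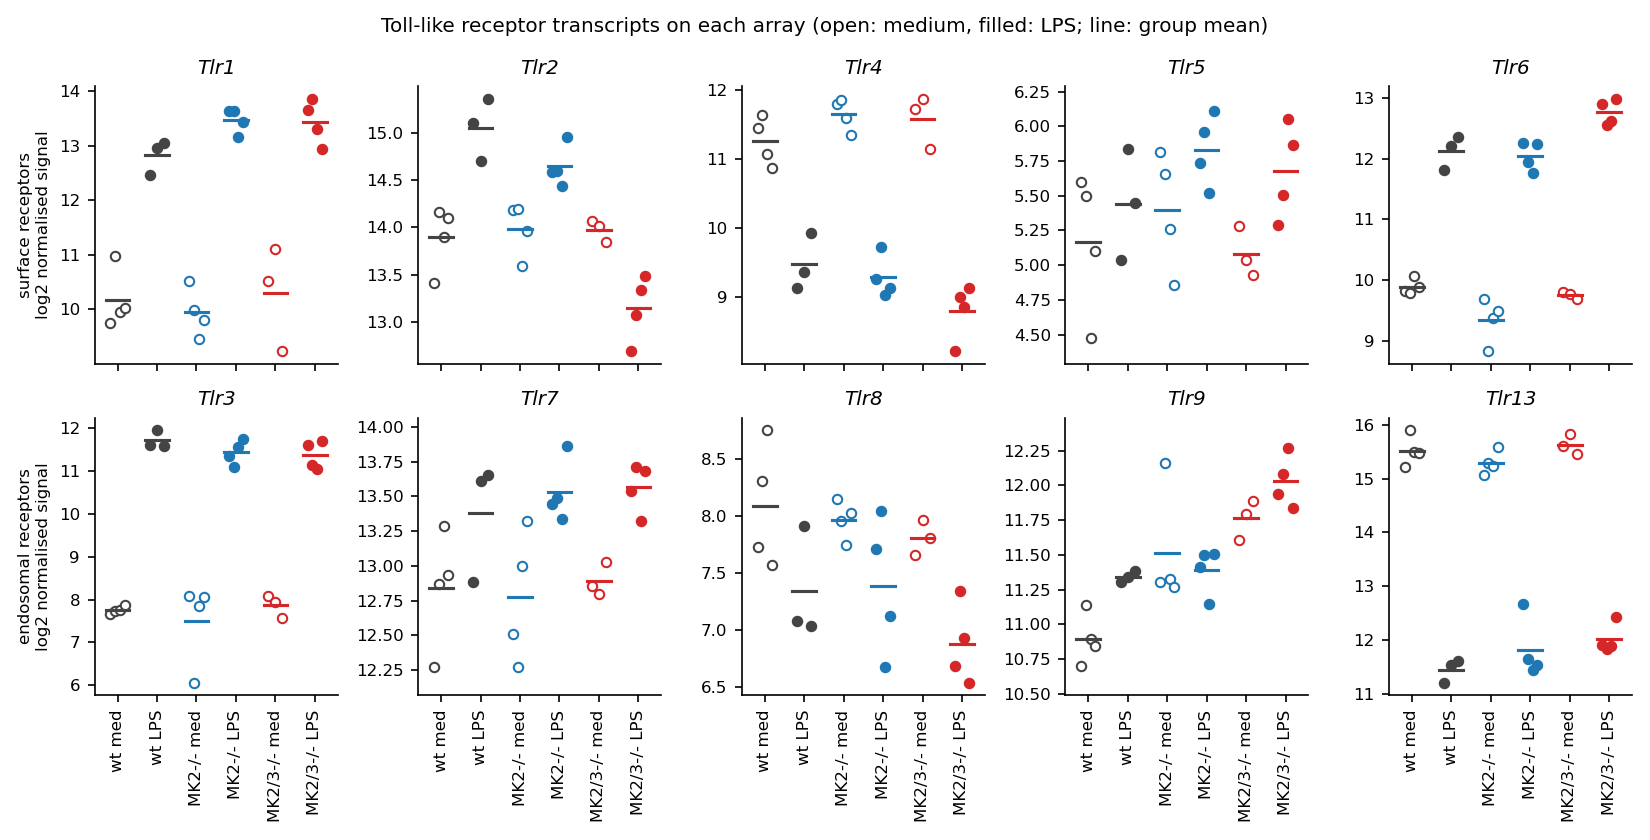
Log2 normalised signal (vertical axis) of the 10 Toll-like receptor genes on each of the 22 arrays, with surface receptors in the upper and endosomal receptors in the lower row. Open circles are medium-treated and filled circles LPS-treated cultures, and lines are group means. The LPS-treated MK2/3-/- arrays of Tlr2 lie at 12.69 to 13.48, below all other LPS-treated arrays of that gene.

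Tlr4, which with the protein encoded by Ly96 forms the receptor for LPS itself, fell with LPS. It read 11.45, 11.64, 11.07 and 10.87 in wt BMDM kept in medium and 9.13, 9.37 and 9.92 in those given LPS. The MK2-/- arrays read 11.79, 11.85, 11.59 and 11.35 in medium and 9.26, 9.73, 9.04 and 9.14 with LPS, and the MK2/3-/- arrays 11.72, 11.87 and 11.14 in medium and 8.23, 9.01, 8.87 and 9.14 with LPS. Every LPS-treated array lay below every medium-treated array of all genotypes. Tlr4 was 3.44-fold lower in wt (log2 difference -1.78, SE 0.27, adjusted p 2.43e-05), 5.11-fold lower in MK2-/- and 6.80-fold lower in MK2/3-/- BMDM. The summed level of the 7 macrophage markers with a probe, 6 of them well above background on all arrays, also lay lower with LPS, at 17.94 to 18.37 against 18.98 to 19.44 in wt, 18.23 to 18.39 against 19.11 to 19.34 in MK2-/- and 18.27 to 18.38 against 19.13 to 19.34 in MK2/3-/- BMDM. This sum adds unlogged signals, so the largest, that of Csf1r (17.16 to 18.50 over all arrays), weighs most in it. Its part in the falls of Tlr4 and Tlr13 was not tested, and fewer macrophages and less RNA per macrophage cannot be told apart in such samples.

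Tlr2, which recognises bacterial lipoproteins together with Tlr1 or Tlr6, rose in wt and MK2-/- BMDM and fell in MK2/3-/- BMDM. In wt BMDM it read 13.41, 14.17, 13.90 and 14.10 in medium and 15.10, 14.70 and 15.36 with LPS. The MK2-/- arrays read 14.19, 14.19, 13.59 and 13.96 in medium and 14.59, 14.60, 14.44 and 14.96 with LPS. The MK2/3-/- arrays read 14.07, 14.01 and 13.85 in medium and 12.69, 13.08, 13.34 and 13.48 with LPS. The medium-treated arrays of the 3 genotypes overlapped, while LPS-treated and medium-treated arrays did not overlap within any genotype, being higher with LPS in wt and MK2-/- and lower with LPS in MK2/3-/- BMDM. The rise was 2.23-fold in wt (log2 difference 1.16, SE 0.23, adjusted p 0.000456) and 1.58-fold in the MK2-/- cells (0.66, SE 0.21, adjusted p 0.0156), whereas Tlr2 fell 1.77-fold in MK2/3-/- BMDM (-0.83, SE 0.23, adjusted p 0.00556). The probe was printed 10 times on each array, and the SD between its spots on 1 array was 0.018 to 0.162, which covers error of the spots and not of the cultures.

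The call in MK2-/- BMDM was lost without LPS-treated replicate 4 (0.56, adjusted p 0.0584), without medium-treated replicate 3 (0.53, adjusted p 0.0643) and without both MK2-/- arrays of replicate 3 (0.60, adjusted p 0.0537). With 75th percentile scaling the responses of Tlr2 were 1.91, 1.51 and -0.13, so that the MK2/3-/- value was no longer called (adjusted p 0.697), and relative to the median of all genes it was -0.42, where quantile normalisation gave -0.84.

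**Figure D2:**
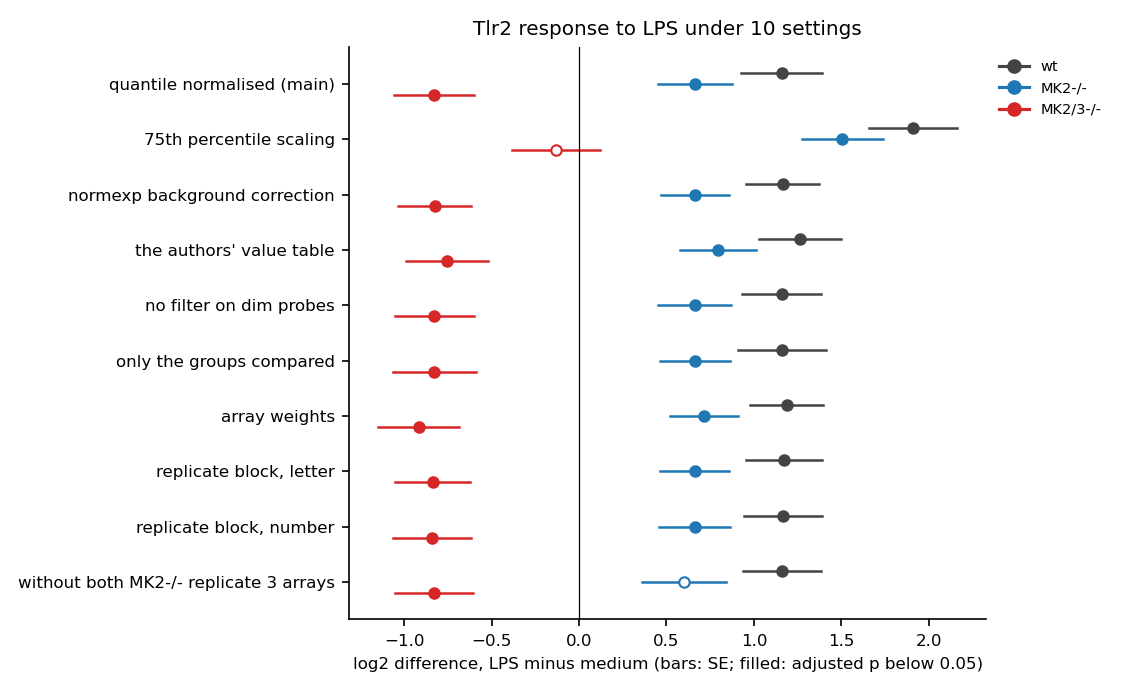
Log2 difference of Tlr2 between LPS-treated and medium-treated arrays (horizontal axis) under 10 ways of processing or fitting the data, for wt, MK2-/- and MK2/3-/- BMDM. Bars are standard errors and filled points were called at an adjusted p below 0.05. The MK2/3-/- point lies at -0.92 to -0.76 except with 75th percentile scaling, where it is -0.13, and in every setting it lies below the other 2 genotypes.

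Tlr1 and Tlr6, the partners of Tlr2, rose with LPS in all genotypes. Tlr1 read 9.74, 10.97, 9.94 and 10.02 in medium-treated and 12.46, 12.95 and 13.05 in LPS-treated wt BMDM. Across the MK2-/- arrays it lay at 9.46 to 10.51 in medium and 13.15 to 13.64 with LPS, and in the MK2/3-/- arrays at 9.24 to 11.11 and 12.93 to 13.86. No LPS-treated array overlapped a medium-treated one. The rises were 6.28-fold in wt (log2 difference 2.65, SE 0.38, adjusted p 1.39e-05), 11.5-fold in MK2-/- and 8.89-fold in MK2/3-/- BMDM.

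Tlr6 read 9.83, 9.80, 10.07 and 9.89 in medium and 11.81, 12.22 and 12.35 with LPS in wt BMDM. The MK2-/- arrays read 9.69, 8.84, 9.38 and 9.50 in medium and 12.26, 11.94, 11.76 and 12.24 with LPS, and the MK2/3-/- arrays 9.80, 9.78 and 9.69 in medium and 12.90, 12.56, 12.62 and 12.99 with LPS. All LPS-treated arrays lay above all medium-treated arrays, and the LPS-treated MK2/3-/- arrays lay above those of the other genotypes. The rises were 4.69-fold (log2 difference 2.23, SE 0.20, adjusted p 5.23e-08), 6.50-fold and 8.08-fold in wt, MK2-/- and MK2/3-/- BMDM.

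Tlr5, the receptor for flagellin, was the surface member not called in any genotype. Its arrays lay at 4.47 to 5.6 in medium-treated and 5.04 to 5.84 in LPS-treated wt BMDM, at 4.86 to 5.82 and 5.52 to 6.11 in MK2-/- BMDM, and at 4.93 to 5.28 and 5.29 to 6.05 in MK2/3-/- BMDM. The medium-treated and LPS-treated arrays overlapped in wt and MK2-/- BMDM, and the 1 array on which the probe was not well above background was wt medium replicate 3. The log2 differences of 0.27, 0.43 and 0.60 did not pass the test (adjusted p 0.487, 0.205 and 0.0967). With 75th percentile scaling they were 0.71, 0.79 and 0.88 and were called in MK2-/- (adjusted p 0.0395) and MK2/3-/- BMDM (adjusted p 0.0314).

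Among the endosomal receptors, Tlr3, which binds double-stranded RNA, rose most. It read 7.67, 7.74, 7.76 and 7.87 in medium and 11.59, 11.94 and 11.59 with LPS in wt BMDM. The MK2-/- arrays read 8.07, 6.06, 7.84 and 8.06 in medium and 11.34, 11.09, 11.55 and 11.74 with LPS, and the MK2/3-/- arrays 8.09, 7.95 and 7.57 in medium and 11.61, 11.13, 11.04 and 11.69 with LPS. The treated and untreated arrays were far apart in every genotype, and the medium-treated MK2-/- replicate 2 was the lowest of all. Tlr3 rose 15.4-fold in wt (log2 difference 3.95, SE 0.35, adjusted p 5.26e-08), 15.1-fold in MK2-/- and 11.3-fold in MK2/3-/- BMDM.

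Tlr13, which in mice recognises bacterial ribosomal RNA, fell most. It read 15.22, 15.89, 15.50 and 15.47 in medium and 11.21, 11.55 and 11.61 with LPS in wt BMDM. In the MK2-/- arrays the values were 15.06, 15.29, 15.24 and 15.58 in medium and 12.67, 11.65, 11.44 and 11.54 with LPS, and in the MK2/3-/- arrays 15.60, 15.83 and 15.47 in medium and 11.91, 11.84, 11.90 and 12.42 with LPS. Every LPS-treated array lay more than 2 log2 units below every medium-treated array. Tlr13 was 16.7-fold lower in wt (log2 difference -4.06, SE 0.25, adjusted p 8.86e-10), 11.1-fold lower in MK2-/- and 12.3-fold lower in MK2/3-/- BMDM, and without both MK2-/- arrays of replicate 3 the MK2-/- difference was -3.36 in place of -3.47.

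Tlr7, a receptor for single-stranded RNA whose gene lies beside Tlr8 on the X chromosome, was called in 2 of the 3 genotypes. Its brighter probe lay at 12.27 to 13.28 in medium and 12.88 to 13.66 with LPS in wt BMDM, at 12.27 to 13.32 and 13.34 to 13.86 in MK2-/- BMDM, and at 12.79 to 13.03 and 13.33 to 13.71 in MK2/3-/- BMDM. The groups overlapped in wt BMDM only. It rose 1.69-fold in MK2-/- (log2 difference 0.76, SE 0.24, adjusted p 0.0155) and 1.59-fold in MK2/3-/- BMDM (0.67, SE 0.26, adjusted p 0.0417). The wt difference of 0.55 was not called (adjusted p 0.106). The other probe of Tlr7 gave 0.76, 0.86 and 0.76 in wt, MK2-/- and MK2/3-/- BMDM and was called in all 3 (adjusted p 0.0354, 0.00963 and 0.0303), so that the wt call depended on the probe. It also appeared without wt LPS replicate 1 (0.80, adjusted p 0.0288) and with 75th percentile scaling (1.11, adjusted p 0.00498). The MK2-/- call was lost without LPS replicate 4, medium replicate 1 or medium replicate 2 (0.59 to 0.67, adjusted p 0.0513 to 0.0594). The MK2/3-/- call was lost without any 1 array of the 2 groups compared apart from LPS replicate 3 (0.62 to 0.74, adjusted p 0.0603 to 0.115).

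Tlr8, the neighbour and near relative of Tlr7, was called in 1 genotype. Probe sequences were not used here, so cross-hybridisation between Tlr7 and Tlr8, or between Tlr1 and Tlr6, was not tested. Tlr8 lay at 7.57 to 8.75 in medium and 7.03 to 7.91 with LPS in wt BMDM, at 7.75 to 8.15 and 6.67 to 8.04 in MK2-/- BMDM, and at 7.66 to 7.97 and 6.54 to 7.35 in MK2/3-/- BMDM, where alone the groups did not overlap. It fell 1.91-fold in MK2/3-/- BMDM (log2 difference -0.94, SE 0.32, adjusted p 0.0221), and the differences of -0.75 in wt and -0.58 in MK2-/- BMDM (adjusted p 0.0714 and 0.126) were not called. The MK2/3-/- call was lost with 75th percentile scaling (-0.64, adjusted p 0.13) and without LPS replicate 1 or 4 or medium replicate 2 or 3 (-0.94 to -0.82, adjusted p 0.0509 to 0.0760). In wt BMDM Tlr8 was called without LPS replicate 2 (-1.03, adjusted p 0.0287) or medium replicate 4 (-0.92, adjusted p 0.0369). The MK2-/- difference was called without LPS replicate 2 of that genotype (-0.80, adjusted p 0.0409).

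Tlr9, the receptor for unmethylated CpG DNA, was not called in any genotype after LPS. It read 10.70, 11.14, 10.89 and 10.84 in medium and 11.30, 11.34 and 11.38 with LPS in wt BMDM, without overlap. The MK2-/- arrays read 11.31, 12.16, 11.33 and 11.27 in medium and 11.42, 11.50, 11.15 and 11.51 with LPS, and the MK2/3-/- arrays 11.61, 11.80 and 11.89 in medium and 11.94, 12.08, 12.27 and 11.84 with LPS. Most of the variation of Tlr9 lay between genotypes, with the wt arrays in medium at the lower and the MK2/3-/- arrays with LPS at the upper end. The responses were 0.45 (adjusted p 0.0761), -0.12 (adjusted p 0.626) and 0.27 (adjusted p 0.280). In wt BMDM the rise was called without MK2-/- medium replicate 2 (0.45, adjusted p 0.0188), and with 75th percentile scaling (0.54, adjusted p 0.0135), which also called the MK2/3-/- value (0.45, adjusted p 0.0356).

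**Figure D3:**
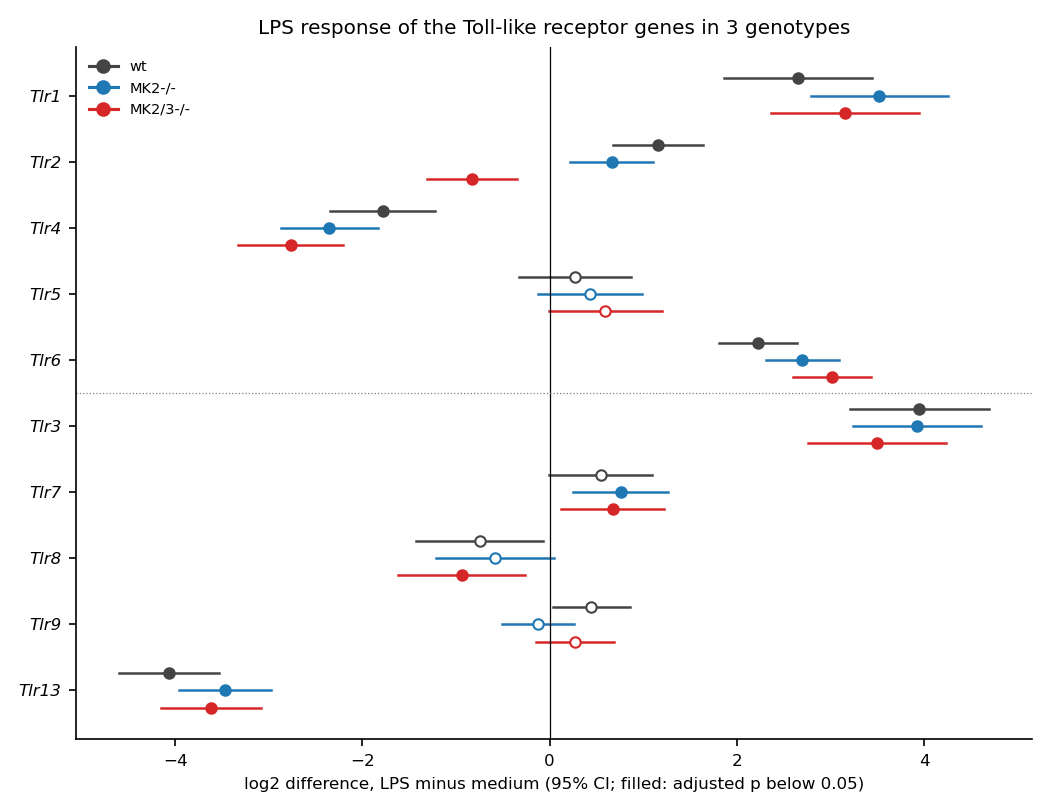
Log2 difference between LPS-treated and medium-treated arrays (horizontal axis) of the 10 Toll-like receptor genes in wt, MK2-/- and MK2/3-/- BMDM, with 95% confidence intervals. Filled points were called at an adjusted p below 0.05, and the dotted line parts surface from endosomal receptors. Tlr1, Tlr3 and Tlr6 lie to the right and Tlr4 and Tlr13 to the left of 0 in all genotypes, and Tlr2 lies on both sides.

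The effect of the deletions was then compared directly. Each genotype had a slide and a scan of its own, so genotype and slide cannot be told apart in these comparisons. Under LPS, MK2-/- and wt BMDM differed in 0 of the 10 members by limma (11.6% of all genes were called), and 0 had an unadjusted p below 0.05. The methods' t-test called 1 member, Tlr1, at its unadjusted threshold and 0 once adjusted, and 75th percentile scaling called Tlr5 (1.00, adjusted p 0.0359). Of all 22346 genes these settings called 5911, 550 and 4769. The differences ranged from -0.41 for Tlr2 (95% confidence interval -0.89 to 0.07, adjusted p 0.244) to 0.64 for Tlr1 (-0.15 to 1.43). MK2/3-/- and wt BMDM under LPS differed in 3 members (23.7% of all genes), and MK2/3-/- and MK2-/- BMDM in the same genes, again 3 members (13.6%). These were Tlr2, Tlr6 and Tlr9, and the MK2-/- comparison kept only Tlr2 without both MK2-/- arrays of replicate 3. The calls over all genes were also fewer in other models. With only the groups compared 1493 of the 22346 genes were called against wt and 1293 against MK2-/- BMDM. The adjusted t-test of the methods called 62 and 720. With 75th percentile scaling the share of called genes that were higher moved from 39.0% to 63.7%, from 40.8% to 57.3% and from 57.0% to 68.5% in the 3 comparisons under LPS, and the median of all genes moved up by 0.18 between MK2/3-/- and wt BMDM.

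Tlr2 was 3.74-fold lower in LPS-treated MK2/3-/- than wt BMDM (log2 difference -1.90, SE 0.23, adjusted p 5.09e-05) and 2.82-fold lower than in MK2-/- BMDM (-1.50, SE 0.21, adjusted p 0.000145). The LPS-treated MK2/3-/- arrays lay below all LPS-treated wt and MK2-/- arrays, which overlapped each other. With 75th percentile scaling the differences were -2.28 and -1.68. The value against wt missed the threshold only with the adjusted t-test of the methods (adjusted p 0.0589).

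Tlr6 was 1.56-fold higher in LPS-treated MK2/3-/- than wt BMDM (log2 difference 0.64, SE 0.20, adjusted p 0.0258) and 1.64-fold higher than in MK2-/- BMDM (0.72, SE 0.18, adjusted p 0.0148). The call against wt was lost with 75th percentile scaling (0.46, adjusted p 0.123) and without wt LPS replicate 1 (0.48, adjusted p 0.141), MK2/3-/- LPS replicate 1 (0.60, adjusted p 0.0617) or replicate 4 (0.57, adjusted p 0.0575). The call against MK2-/- BMDM was lost without both MK2-/- arrays of replicate 3 (0.62, adjusted p 0.0509), and a model of only the groups compared called neither (adjusted p 0.123 and 0.0795).

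Tlr9 was 1.62-fold higher in LPS-treated MK2/3-/- than wt BMDM (log2 difference 0.69, SE 0.20, adjusted p 0.0162) and 1.56-fold higher than in MK2-/- BMDM (0.64, SE 0.18, adjusted p 0.0251), and no array overlapped in either comparison. The call against wt was lost without wt LPS replicate 1 (0.67, adjusted p 0.0529), and a model of only the groups compared (adjusted p 0.0753 and 0.0841) and the adjusted t-test of the methods (0.0677 and 0.0592) called neither. The call against MK2-/- BMDM was lost without MK2-/- LPS replicate 1 (0.65, adjusted p 0.0568) or replicate 3 (0.56, adjusted p 0.0636), without MK2/3-/- LPS replicate 3 (0.56, adjusted p 0.0717) and without both MK2-/- arrays of replicate 3 (0.56, adjusted p 0.0708). The other 7 members differed from wt in MK2/3-/- BMDM by -0.67 (Tlr4) to 0.62 (Tlr1), none of them called, though 75th percentile scaling called Tlr4 (-0.68, adjusted p 0.0384) and Tlr5 (1.02, adjusted p 0.0201), array weights Tlr4 (-0.89, adjusted p 0.0281) and the fit without MK2-/- LPS replicate 1 Tlr13 (0.56, adjusted p 0.0467).

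In medium the family differed in 1 gene. MK2-/- and wt BMDM differed in 1 member (8.88% of all genes), MK2/3-/- and wt BMDM also in 1 (2.02%), and MK2/3-/- and MK2-/- BMDM in 0 members by limma (2.83%), with 0 at an unadjusted p below 0.05. The member called was Tlr9, 1.54-fold higher in MK2-/- (log2 difference 0.62, SE 0.18, adjusted p 0.0410) and 1.83-fold higher in MK2/3-/- than in wt BMDM (0.87, SE 0.20, adjusted p 0.0345), without overlap of arrays. The remaining differences from wt ranged from -0.54 (Tlr6, MK2-/-) to 0.39 (Tlr4, MK2-/-). With 75th percentile scaling the share of called genes that were higher moved from 64.7% to 84.0%, from 74.1% to 90.1% and from 70.6% to 89.5%, and the median of all genes up by 0.11 between MK2/3-/- and wt BMDM. In that scaling the log2 difference of Tlr9 was 0.37 in MK2-/- and 0.57 in MK2/3-/- BMDM (adjusted p 0.0988 and 0.0252), and Tlr5 (0.92, adjusted p 0.0335) and Tlr6 (-0.62, adjusted p 0.0444) were called in MK2-/- BMDM. The MK2-/- call of Tlr9 was lost without 1 of wt medium replicates 1, 3 and 4, MK2-/- medium replicates 2 and 3, MK2-/- LPS replicate 1 and MK2/3-/- medium replicate 2 (0.41 to 0.68, adjusted p 0.05001 to 0.128). The MK2/3-/- call was lost without 1 of wt medium replicates 1, 3 and 4 and MK2/3-/- medium replicates 1, 2 and 3 (0.81 to 0.95, adjusted p 0.0599 to 0.114).

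**Figure D4:**
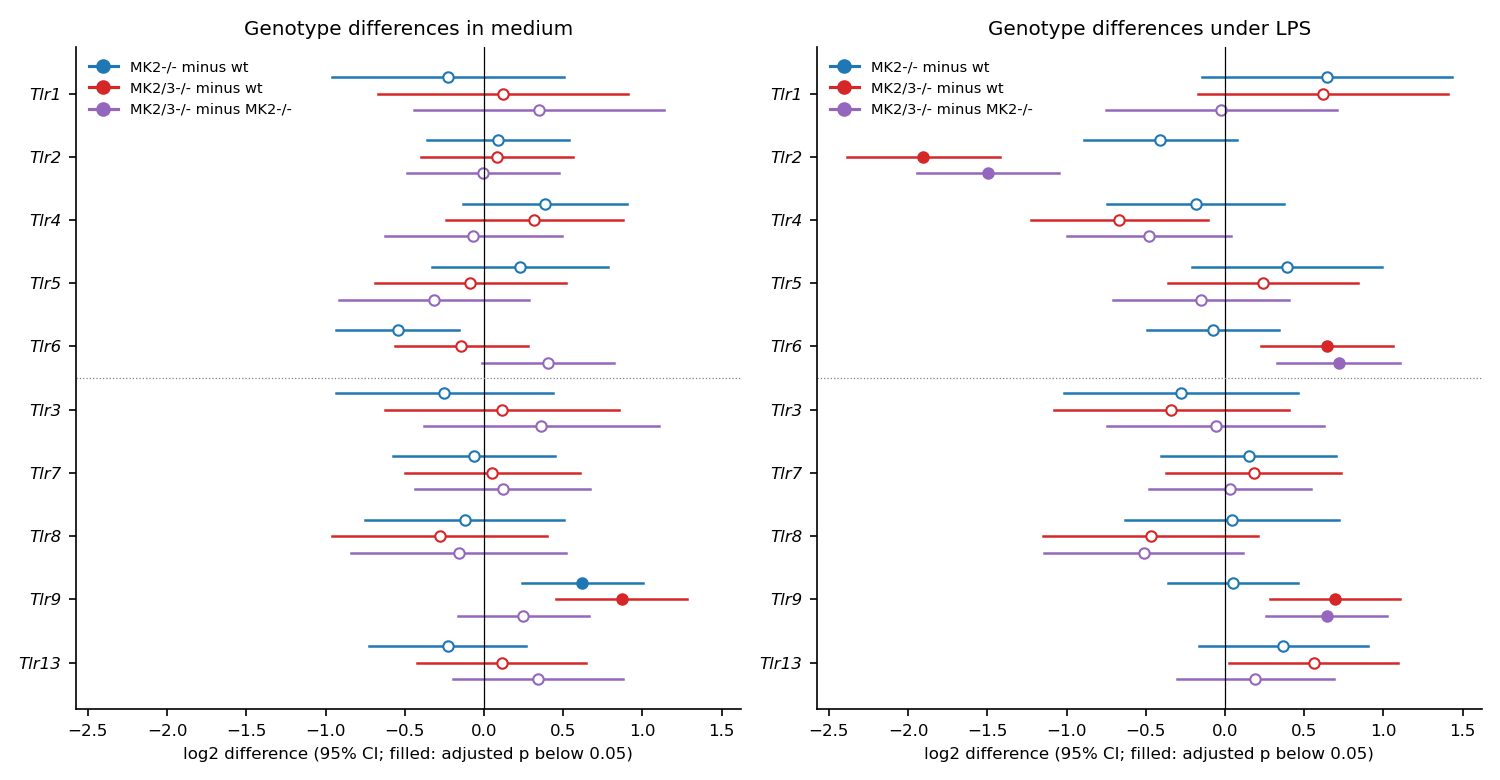
Log2 differences between genotypes (horizontal axis) of the 10 Toll-like receptor genes in medium (left) and with LPS (right), with 95% confidence intervals. Filled points were called at an adjusted p below 0.05, and the dotted line parts surface from endosomal receptors. Tlr2 is set apart only with LPS, at -1.90 and -1.50, while Tlr9 differs from wt in medium as well.

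Summed levels of neutrophil and T cell markers lay higher in MK2/3-/- than in wt BMDM. These sums add unlogged signals, so the markers with the largest signals carry them and the other markers weigh little. Among the neutrophil markers this was Elane, at 10.34 to 12.53 over all arrays, followed by Camp at 6.05 to 10.38. Among the T cell markers these were Cd4 (10.92 to 13.01) and Cd3e (9.71 to 12.25). MK2/3-/- and MK2-/- BMDM overlapped in these sums, apart from the neutrophil sum with LPS. The summed level of the 5 neutrophil markers with a probe, 3 of them well above background on all arrays, was 11.79 to 12.37 in LPS-treated and 12.13 to 12.51 in medium-treated MK2/3-/- BMDM, against 11.20 to 11.58 and 11.34 to 11.66 in wt and 10.95 to 11.59 and 11.35 to 12.65 in MK2-/- BMDM. The summed level of the 5 T cell markers, 2 of them well above background on all arrays, was 12.69 to 13.54 and 12.71 to 13.18, against 12.41 to 12.53 and 11.82 to 12.14 in wt and 12.41 to 13.09 and 12.29 to 13.21 in MK2-/- BMDM. Cd3g, a defining T cell marker, was well above background on 1 of the 22 arrays, and Cd3d on 10. The B cell, dendritic cell and stromal cell sums of MK2/3-/- and wt BMDM overlapped in medium and with LPS. The mast cell sums overlapped with LPS but not in medium (6.89 to 7.02 in MK2/3-/-, 6.34 to 6.61 in wt BMDM). The stromal cell sum varied most, from 8.47 to 15.06 over the medium-treated arrays. The part of these sums in the differences of Tlr2, Tlr6 and Tlr9 was not tested.

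Whether a deletion changed the response to LPS was tested as the difference of the responses, in which an additive effect of the slide cancels. Between MK2-/- and wt BMDM 0 of the 10 members passed in limma, as did 0% of all genes, although 1 member, Tlr9 (-0.57), and 1684 genes had an unadjusted p below 0.05. Between MK2/3-/- and wt BMDM 1 member passed, where 0.689% of all genes did, and between MK2/3-/- and MK2-/- BMDM 0 members passed (0.0671% of all genes), with 1, Tlr2, at an unadjusted p below 0.05. The member that passed was Tlr2, whose response was lower in MK2/3-/- than in wt BMDM (difference -1.99, SE 0.33, 95% confidence interval -2.67 to -1.31, adjusted p 0.0172). The difference was -1.49 from MK2-/- BMDM (-2.15 to -0.83, adjusted p 0.106) and -0.50 between MK2-/- and wt BMDM (-1.15 to 0.16, adjusted p 0.768). With 75th percentile scaling the difference from wt was -2.04 (adjusted p 0.0315). The call was lost without MK2/3-/- medium replicate 2 (-1.97, adjusted p 0.0630) and when the model held only the groups compared (-1.99, adjusted p 0.0551). With normexp background correction the share of called genes that were higher was 26.8% in place of 15.6% against wt and 62.5% in place of 46.7% against MK2-/- BMDM.

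The genes that act with the receptors were taken in 5 lists, whose counts are to be read against the 18.6%, 17.6% and 20.3% of all genes that were higher and the 23.5%, 27.2% and 28% that were lower after LPS in wt, MK2-/- and MK2/3-/- BMDM. Of 6 genes for LPS recognition and accessory surface proteins, 2 rose in wt and 3 each in MK2-/- and MK2/3-/- BMDM, and 0 fell, counts too small to set this list apart from all genes. The median log2 difference of this list was 0.22, 0.62 and 0.55. Cd14, which hands LPS to the receptor, rose by 1.56, 1.93 and 1.11 log2 units in wt, MK2-/- and MK2/3-/- BMDM (adjusted p 0.000171, 4.59e-06 and 0.00277), and Cd180, a receptor relative of the surface, by 0.93, 1.55 and 1.33. Ly96, the partner of Tlr4, was 1.12 log2 units higher in MK2-/- than wt BMDM under LPS (SE 0.31, adjusted p 0.0271).

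Of the 6 adaptors listed 5 were tested, and 4, 5 and 4 of them rose in wt, MK2-/- and MK2/3-/- BMDM (median 0.71, 1.45 and 1.25). Myd88, the adaptor of most receptors, rose by 2.40, 2.34 and 2.69 log2 units (adjusted p 1.05e-09, 1.93e-10 and 1.44e-10), and Pik3ap1 by 1.97, 2.02 and 2.22. Under LPS Tirap, which bridges Tlr2 and Tlr4 to MyD88, was lower in MK2/3-/- than in wt (log2 difference -0.91, adjusted p 0.00159) and than in MK2-/- BMDM (-0.75, adjusted p 0.00550). Ticam1, which encodes TRIF, was higher than in wt by 0.67 in MK2-/- (adjusted p 0.0322, lost with 75th percentile scaling) and by 0.83 in MK2/3-/- BMDM (adjusted p 0.00503).

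Of 10 receptor chaperones and endosomal trafficking genes, 1 was higher and 7 were lower in wt and MK2-/- and 1 was higher and 8 were lower in MK2/3-/- BMDM (median -0.72, -0.82 and -1.12), but these counts hung on the scaling. When arrays were scaled to their 75th percentile, 3 genes were lower in each genotype, 2, 1 and 1 were higher, and the medians were 0.11, -0.07 and -0.21. Cnpy3, a chaperone of several receptors, fell in all genotypes (log2 differences -1.91, -2.38 and -2.19, adjusted p 2.33e-07, 2.42e-09 and 2.13e-08). Slc15a4, an endosomal transporter, fell in all genotypes as well (-1.72, -1.54 and -1.53), as did Cnpy4, a relative of Cnpy3 (-1.35, -2.69 and -2.32). Ap3b1, a subunit of a vesicle adaptor complex, rose by 0.53, 0.41 and 0.80. The falls lost with that scaling were those of the lysosomal proteases Ctsb, Ctsl, Ctss and Lgmn in each genotype, with Ctsb and Ctss changing sign, and that of Hsp90b1 in MK2/3-/- BMDM. Under LPS Ctsl was lower than in wt in MK2-/- (log2 difference -0.81, adjusted p 0.0445) and also in MK2/3-/- BMDM (-0.999, adjusted p 0.00818), and Hsp90b1 in MK2/3-/- BMDM (-0.74, adjusted p 0.0463).

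Of the 12 proximal kinases and ligases, 5 rose and 3 fell in wt and 6 rose and 3 fell in both MK2-/- and MK2/3-/- BMDM (median 0.26, 0.57 and 0.43). The ligase gene Peli1 rose by 3.38, 3.13 and 3.05 log2 units and the kinase gene Ikbke by 3.19, 3.57 and 3.76. Irak4, the first kinase recruited by MyD88, fell (-1.47, -1.57 and -1.79). Tab1, which encodes a partner of the kinase TAK1, fell as well (-2.35, -3.15 and -3.62, adjusted p 1.72e-07, 7.32e-10 and 4.71e-10), and under LPS Tab1 differed from wt by -0.78 in MK2-/- and -1.62 in MK2/3-/- BMDM, the latter lying -0.84 from MK2-/- BMDM (adjusted p 0.0366, 0.000148 and 0.0146).

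Among 7 inhibitors of receptor signalling, 4 rose and 2 fell in wt and 3 rose and 1 fell in both MK2-/- and MK2/3-/- BMDM (median 0.46, 0.15 and 0.22). Tnfaip3, which encodes the ubiquitin-editing protein known as A20, rose by 5.87, 6.98 and 6.08 log2 units (adjusted p 5.47e-10, 1.27e-11 and 1.40e-10) and Tnip1, its binding partner, by 2.62, 2.53 and 2.37. Sigirr, an inhibitory receptor, fell in wt (-1.35) and MK2-/- BMDM (-2.34), and Rnf216, a ubiquitin ligase gene, in wt (-0.75) and MK2/3-/- BMDM (-0.72). Irak3, an inhibitory kinase relative, was lower in MK2/3-/- than in MK2-/- BMDM under LPS (log2 difference -1.15, SE 0.29, adjusted p 0.0127). With quantile normalisation no gene of the 5 lists was called between genotypes in medium or in the difference of responses. With 75th percentile scaling 1 LPS recognition gene was higher and 1 chaperone or trafficking gene lower in MK2/3-/- than wt BMDM in medium. In that scaling 1 inhibitor was lower in MK2-/- than wt BMDM in medium.

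**Figure D5:**
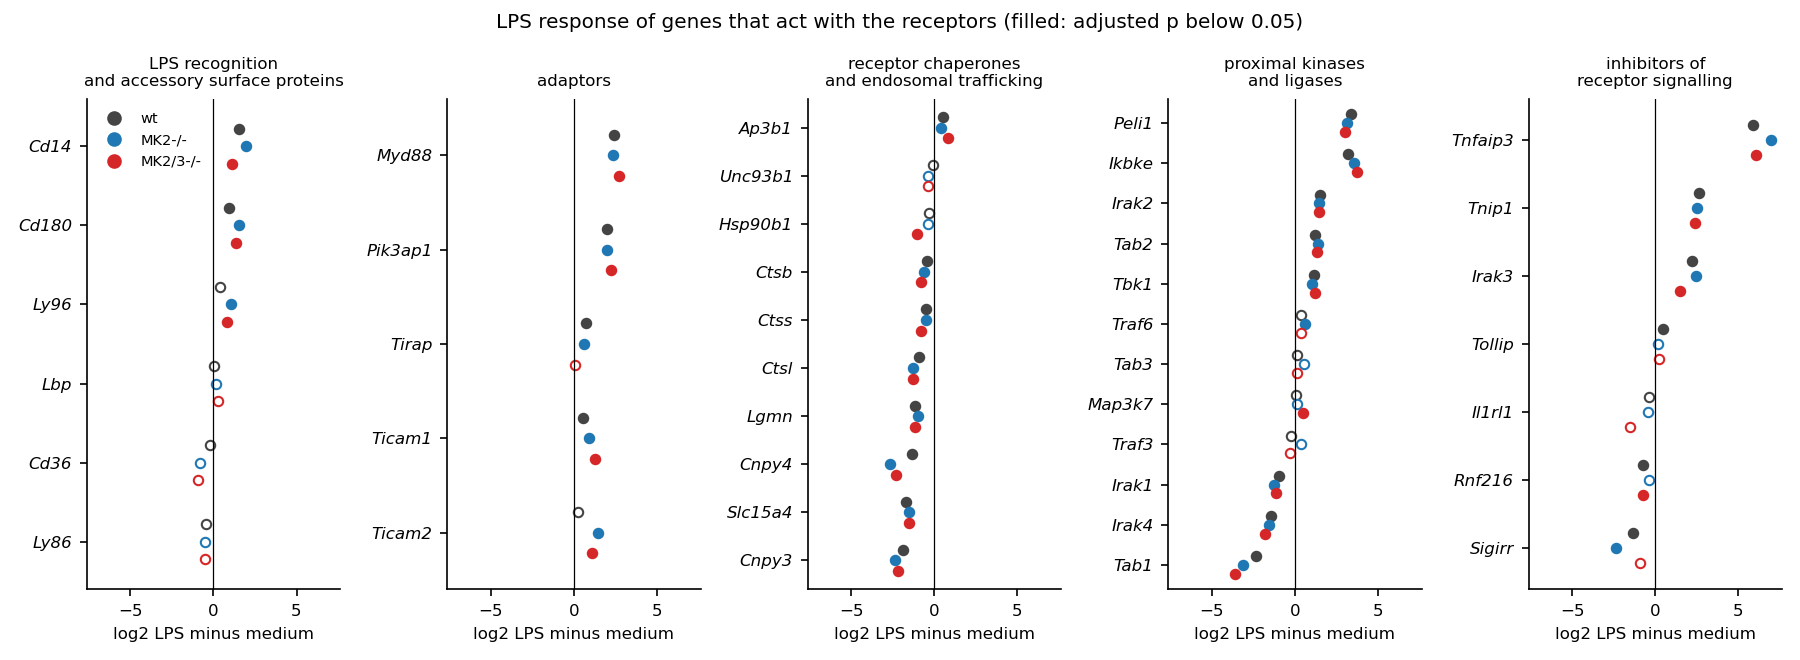
Log2 difference between LPS-treated and medium-treated arrays (horizontal axis) of the genes of 5 lists that act with the Toll-like receptors, in wt, MK2-/- and MK2/3-/- BMDM. Filled points were called at an adjusted p below 0.05. The adaptors lie at or to the right of 0, most chaperone and trafficking genes to its left, and Tnfaip3 lies farthest to the right at 5.87 to 6.98.

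The genes whose pattern was most like that of each member were named by Pearson's r over the 22 arrays among 21293 genes with values on all arrays, as a description that mostly reflects the treatment shared by the arrays. For Tlr3 these were Enpp4, Epsti1 and Azi2 (r 0.988 to 0.994), for Tlr6 Tmem39a, Ranbp2 and Pttg1 (0.987 to 0.990), for Tlr1 Ikbke, Snx2 and Parp14 (0.980 to 0.986) and for Tlr13 Map1lc3b, Mfsd6 and Epb41 (0.985 to 0.986). Tlr4 ran with B3gnt8, Otulinl and Smim11 (0.972 to 0.974), Tlr9 with Irak1bp1, Sart1 and D430042O09Rik (0.909 to 0.929) and Tlr7 with Gtdc1, Vps54 and Rab12 (0.912 to 0.926). Lower values were found for Tlr8 with Gpcpd1, Zfp280d and Vps33b (0.874 to 0.888), Tlr2 with Ptges2, Sh2b2 and Tspyl3 (0.840 to 0.869) and Tlr5 with Gfi1b, Slc4a4 and Fam83g (0.785 to 0.821).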

How the data were processed

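Cy3-labelled RNA was hybridised to Agilent mouse arrays, 1 sample to an array. The deposited scanner files hold for every spot a raw intensity and a processed intensity, background-corrected by Feature Extraction 11.0.1.1. Further deposited log2 values, which the authors had quantile normalised and centred per probe, followed those used here with r of 0.992 to 0.999.

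Control spots and marked outlier spots were dropped, and log2 processed intensities were quantile normalised over 22 arrays. Of 29150 RefSeq probes 27509 were named through RefSeq genes of GRCm38.p6, and 3735 GenBank probes entered as well. Probes without a name stood under their accession, so 18359 of the 22346 genes tested had a symbol. Probes reaching well above background on 3 or more arrays stayed (28054), the brightest standing for its gene, and no spot was saturated. All arrays entered 1 limma 3.58.1 model with 6 group means and eBayes (R 4.3.3), two-sided, with Benjamini-Hochberg adjusted p below 0.05. On data simulated for the wt comparison, with 200 of 21293 genes changed, 26% of changes of 1 log2 unit and 72% of changes of 2 log2 units were recovered. In the data 42.2% of all genes were called there, which makes the adjusted threshold less strict, so these shares are not the power of that comparison.

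Groups came from the sample labels. The methods call the experiments independent, although the labels tie no culture to a named animal, and p-values measure the spread between these samples, whose number limits the precision. Members and gene lists were chosen with earlier results of these data known. All members were named, with the called list genes of the 2 largest rises and falls per comparison and the 3 genes most like each member. Alternatives were another scaling, background correction, the authors' values, filter, probe choice, model, the methods' t-test, array weights, a replicate block, and leaving out each array or, chosen after seeing the data, both MK2-/- arrays of replicate 3.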

Additional observations from a re-analysis of the deposited data

Results flagged for a closer look

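In groups of 4 arrays, 44 were tested for 1 array far from the others (Dixon's test at its 95% critical value), and 4 were flagged, where chance flags about 1 in 20 groups. Tlr9 read 12.16 on medium-treated MK2-/- replicate 2 and 11.27 to 11.33 on the other arrays of that group. Tlr3 read 6.06 on the same array and 7.84 to 8.07 on the others. Tlr13 read 12.67 on LPS-treated MK2-/- replicate 1, with 11.44 to 11.65 on the others, and 12.42 on LPS-treated MK2/3-/- replicate 4, with 11.84 to 11.91 on the others.

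The response of Tlr2 to LPS differed between genotypes, by -1.99 log2 units between MK2/3-/- and wt BMDM in the test of the difference itself.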

How the results depend on the processing

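Of 30 called pairs of member and comparison, 17 were called in every setting, 13 were lost in at least 1 and 0 changed direction, over 22 fits that left out 1 array and 13 other settings (11 for differences of responses). Of 12 pairs that were tabulated though not called, 8 were called in at least 1 setting. The number of members called after LPS ran from 6 to 7 in wt, 5 to 8 in MK2-/- and 6 to 8 in MK2/3-/- BMDM without 1 array. For fits without 1 array no count over all genes is given here. Between MK2-/- and wt BMDM in medium the number was 2 with 75th percentile scaling and 0 with only the groups compared. It was 2 with the methods' t-test, 0 with that test after Benjamini-Hochberg adjustment and 0 to 1 without 1 array. Of all 22346 genes the first 4 of these settings called 4913, 1565, 5640 and 783. Between MK2-/- and wt BMDM under LPS it was 1 with 75th percentile scaling and 1 with the methods' t-test, where 4769 and 5911 of all genes were called. Between MK2/3-/- and MK2-/- BMDM under LPS it was 1 with only the groups compared, 1 with the adjusted t-test and 1 with both MK2-/- arrays of replicate 3 left out. These settings called 1293, 720 and 2940 of all genes. Between MK2/3-/- and wt BMDM in medium it was 0 with the adjusted t-test (157 of all genes) and 0 to 1 without 1 array. Under LPS it was 1 with only the groups compared (1493 of all genes) and 0 with the adjusted t-test (62 of all genes). It was 1 to 4 there without 1 array, where 1 followed from leaving out wt LPS replicate 1. For the differences of responses it was 1 with array weights between MK2/3-/- and MK2-/- (Tlr2, -1.63), and between MK2/3-/- and wt BMDM 0 with only the groups compared and 0 to 1 without 1 array. The response of Tlr9 in MK2-/- BMDM turned to 0.0040 with 75th percentile scaling and 0.0546 with array weights, and ran from -0.206 to 0.0906 without 1 array. The causes were not tested.

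Deviations from the group means were correlated between medium-treated and LPS-treated arrays of a genotype. Arrays with the same letter of the authors correlated above 0.1 in 7 of 10 pairs (-0.0846 to 0.419). Those with different letters did so in 6 of 30 pairs (-0.329 to 0.267). Replicate numbers gave the same counts, 7 of 10 pairs with the same number (-0.0846 to 0.369) and 6 of 30 others (-0.329 to 0.419). The letters or the numbers may thus pair the samples, which the main model did not take into account. These counts do not tell which of them does. With the replicate block by letter Tlr8 (-0.74, adjusted p 0.0473) and Tlr9 (0.46, adjusted p 0.0487) joined the calls in wt BMDM, giving 8 members. With the replicate block by number Tlr8 (-0.77, adjusted p 0.0474) joined, giving 7. Of all 22346 genes 10067 and 9954 were called there. The block changed no other call of a member.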

Other observations

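Family genes outside the members lay near the limit of the arrays. The probe of Tlr11 was well above background on 4 of the 22 arrays and was not called in any comparison, and that of Tlr12 was so on 0 and was not tested.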
